A study of Homo sapiens with 11 samples.

Results

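Keratins were represented by 35 of the 14941 named genes of the array, each by 1 of its 22464 probes. They were chosen by symbol alone, as genes named KRT followed by a digit, so that the keratin-associated proteins were left out. Of the 35, 33 are protein-coding, 1 is the antisense gene KRT10-AS1 and 1 is the pseudogene KRT8P12. Chromosome 17, which carries the type I cluster, holds 20 of them, and chromosome 12, which carries the type II cluster, holds 14. By class there were 4 simple keratins (KRT7, KRT18, KRT19, KRT20), 3 basal keratins (KRT5, KRT14, KRT15), 1 stress keratin (KRT16), 10 suprabasal keratins, 2 keratins of the inner root sheath and companion layer of the hair follicle, 11 keratins of the hair shaft and 2 others (KRT23, KRT80). Of 55 keratins in the class lists, 22 had no probe matched by symbol, among them KRT8, KRT17 and KRT6A.

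The cells were RT4, an established epithelial line from a papilloma of the human bladder, in which no gene was altered for this experiment. RNA had been taken from RT4 cells seeded on Matrigel, a tumor-derived basement membrane gel that the study calls cancer-remodeled extracellular matrix, at 12 h and on days 1, 2, 3, 4, 6, 7, 8 and 9 (9 arrays, 1 for each time), and from RT4 cells on plastic (2 arrays, with no time in the labels). Cells on the gel were fed with serum-containing McCoy's medium from below the insert. The 9 Matrigel arrays are time points of 1 culture condition and not replicates of a time, and nothing in the labels says that the 2 plastic arrays came from separate cultures, so the p-values measure the spread between these arrays.

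Keratins are the intermediate filament proteins of epithelial cells. A type I and a type II keratin join as an obligate pair, the pairs assemble into filaments, and the filaments are anchored at desmosomes and hemidesmosomes. Which pair a cell uses follows its place and state, with simple keratins in single-layered and luminal cells, KRT5 and KRT14 in basal cells, KRT13 and KRT4 in the upper layers of moist stratified epithelia, and KRT1 and KRT10 in the upper epidermis. In the bladder lining KRT5 marks basal cells, KRT13 basal and intermediate cells, and KRT20 the umbrella cells that face the lumen.

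The start regions of some keratins called below are shown because members of the type I cluster that lie near each other on chromosome 17 were called in opposite directions. Each is from RefSeq on GRCh38.p14 and holds 100 bases before the transcription start and the first 20 transcribed bases, 5′ to 3′ on the minus strand, with the letters TATAAA in capitals where they occur. The KRT24 window lies at chr17:40703733-40703852, KRT9 at chr17:41572040-41572159, KRT12 at chr17:40867204-40867323, KRT36 at chr17:41489891-41490010 and KRT20 at chr17:40885223-40885342. KRT37 (chr17:41424566-41424685) and its neighbor KRT38 (chr17:41440964-41441083) are shown together because 116 of their 120 bases (96.7%) were identical.
KRT24: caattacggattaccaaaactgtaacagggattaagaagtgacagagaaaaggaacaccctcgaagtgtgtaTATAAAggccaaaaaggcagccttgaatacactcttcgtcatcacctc
KRT9: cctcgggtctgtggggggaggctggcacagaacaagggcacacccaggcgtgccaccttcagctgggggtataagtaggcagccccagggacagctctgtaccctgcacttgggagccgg
KRT12: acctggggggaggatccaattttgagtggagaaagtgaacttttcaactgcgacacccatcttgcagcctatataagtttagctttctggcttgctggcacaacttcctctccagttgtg
KRT36: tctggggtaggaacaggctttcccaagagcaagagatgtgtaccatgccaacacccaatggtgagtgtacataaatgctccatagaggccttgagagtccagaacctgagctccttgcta
KRT37: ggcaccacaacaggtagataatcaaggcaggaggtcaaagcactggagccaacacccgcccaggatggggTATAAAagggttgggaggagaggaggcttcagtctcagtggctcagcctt
KRT38: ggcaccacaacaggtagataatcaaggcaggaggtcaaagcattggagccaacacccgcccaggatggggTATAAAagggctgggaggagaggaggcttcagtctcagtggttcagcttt
KRT20: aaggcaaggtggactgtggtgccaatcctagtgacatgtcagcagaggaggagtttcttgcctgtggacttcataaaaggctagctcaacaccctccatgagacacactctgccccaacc
The promoter table held 23 of the 35 members. Over windows of 300 bases and on both strands, TATAAA was found in 12 of the 23 (52.2%) and in 11.5% of all 35116 promoters. GGGCGG (a GC box) was found in 7 (30.4%, against 45% of all), GCCNNNGGC (AP-2) in 3 (13%, against 23.2%) and TGANTCA (AP-1) in 0 (7.71% of all). The first base of TATAAA lay 28 bases before the start in KRT24 and 30 bases before it in KRT37 and KRT38. TATAAA was in 2 of the 6 windows of keratins called higher on Matrigel, in 0 of 1 of those called lower and in 10 of the other 16. A match is a match of letters in these windows, and occupancy by a factor was not measured.

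The level of a probe is given here in noise SDs, the unit of the deposited values. It is the distance above the zero point of an array in standard deviations of the low peak of its intensities, and 3 SD is the threshold of expression. Levels of different probes are not compared. By this measure 26 of 35 keratins (74.3%, against 77.9% of all probes) were above 3 SD on all 9 Matrigel arrays and 29 (82.9%, against 83.2%) on both plastic arrays, while KRT33B and KRT76 were above it on no array. KRT84 was above it on 1 plastic array only (5.35 SD). The remaining 32 were tested.

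**Figure D1:**
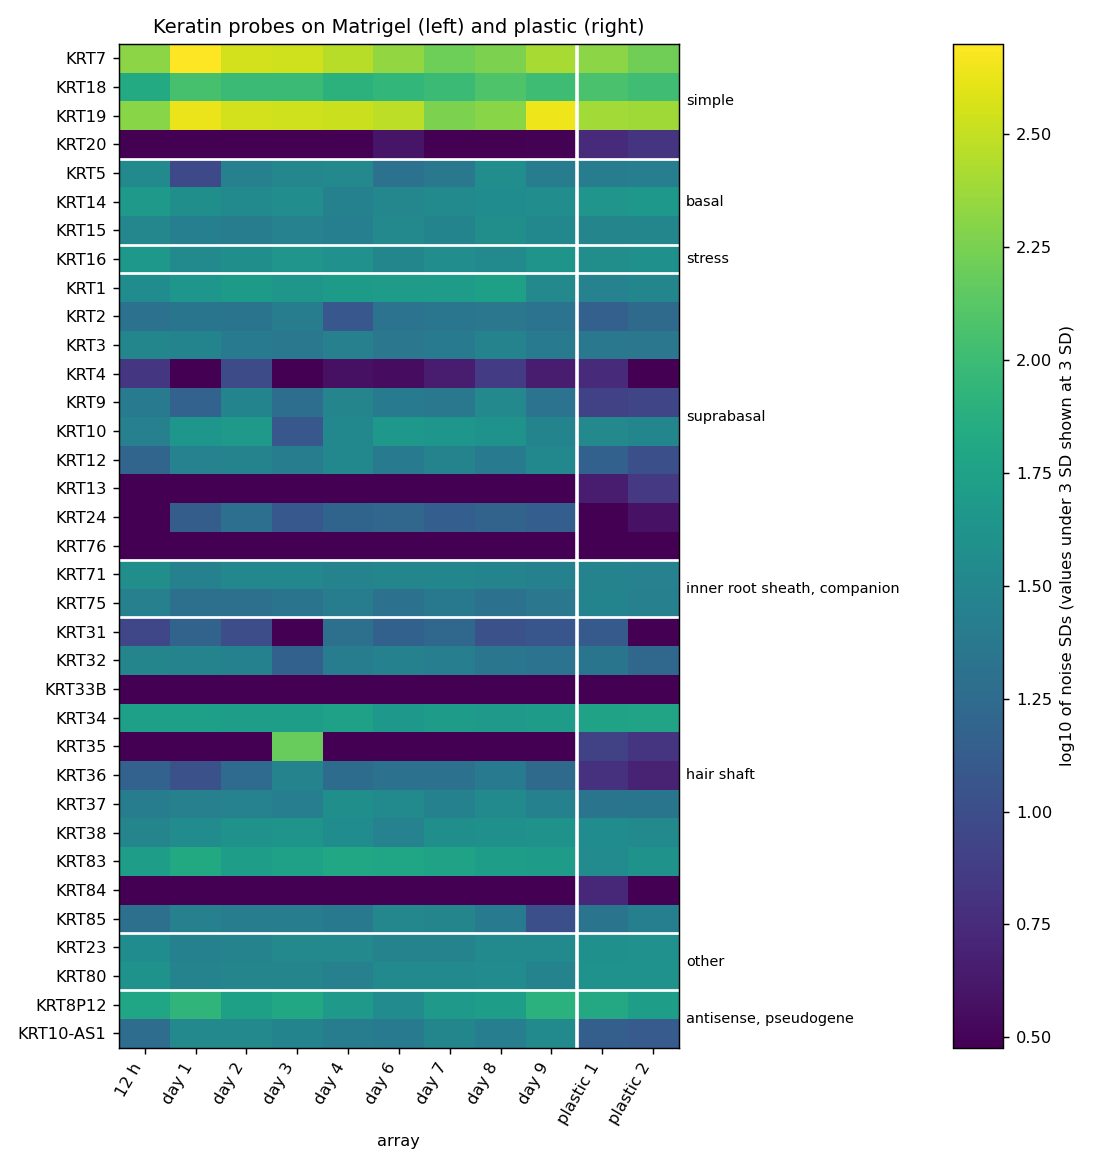
Level of each of the 35 keratin probes on each array, as log10 of noise SDs with values under 3 SD shown at 3 SD. Matrigel arrays by time are left of the white line and the plastic arrays right of it, and rows are grouped by keratin class. KRT13, KRT20, KRT33B, KRT35, KRT76 and KRT84 are dark on nearly all Matrigel arrays.

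Many markers of cell types that do not belong to this culture were above 3 SD as well. On all Matrigel arrays this held for 5 of 8 muscle markers and 6 of 7 neuron markers, while the muscle marker MYOG was above it on no array. Of the leukocyte markers 7 of 7 and of the fibroblast markers 8 of 9 were above 3 SD on all Matrigel arrays, and 8 of 10 urothelial and 6 of 7 epithelial markers were. The summed level of the fibroblast markers was 207 to 235 SD on Matrigel and 242 to 253 SD on plastic, that of the leukocyte markers 178 to 223 SD on Matrigel and 153 to 157 SD on plastic, and that of the urothelial markers 247 to 281 SD on Matrigel and 254.6 to 254.8 SD on plastic. Some of these markers also passed between the groups, where 22.8% of all probes tested were higher on Matrigel and 22.4% lower. Of 7 leukocyte markers 2 were higher (CD3E, log2 change 2.64, and CD3D, 1.67) and 1 lower. Of 9 fibroblast markers 2 were higher (PDGFRB, 1.85, and COL1A1, 0.60) and 3 lower (THY1, -1.65, the most). Of 7 tested muscle markers 2 were higher and 1 lower, and of 7 neuron markers 0 were higher and 1 lower. The part of such signal in the levels and changes of hair and epidermal keratins was not tested.

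The first question was which keratins differed between cells on Matrigel and on plastic. With limma, 12 of the 32 tested keratins passed an adjusted p of 0.05 (37.5%), against 45.2% of all 21480 probes tested. Of these 8 were higher on Matrigel (25%, against 22.8% of all probes) and 4 were lower (12.5%, against 22.4%). Without plastic replicate 1 there were 5 higher and 1 lower, and without plastic replicate 2 there were 4 higher and 1 lower. With 1 plastic array left, the spread in these fits came from the Matrigel arrays alone, and the lone array was assumed to vary like them. The 9 Matrigel arrays were all above both plastic arrays for 7 keratins (20.8% of all probes) and all below them for 5 (24.4%). In the deposited values the share of keratins called higher was thus near that of all probes and the share called lower was below it. In values rebuilt from the raw intensities and centered on the median the order of the lower calls turned, with 12 of 29 keratins lower (41.4%, against 35.3% of all probes) and 9 higher (31.0%, against 33.0%). None of these differences was tested. The median log2 change was 0.08 over the tested members and 0.06 over all probes.

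**Figure D2:**
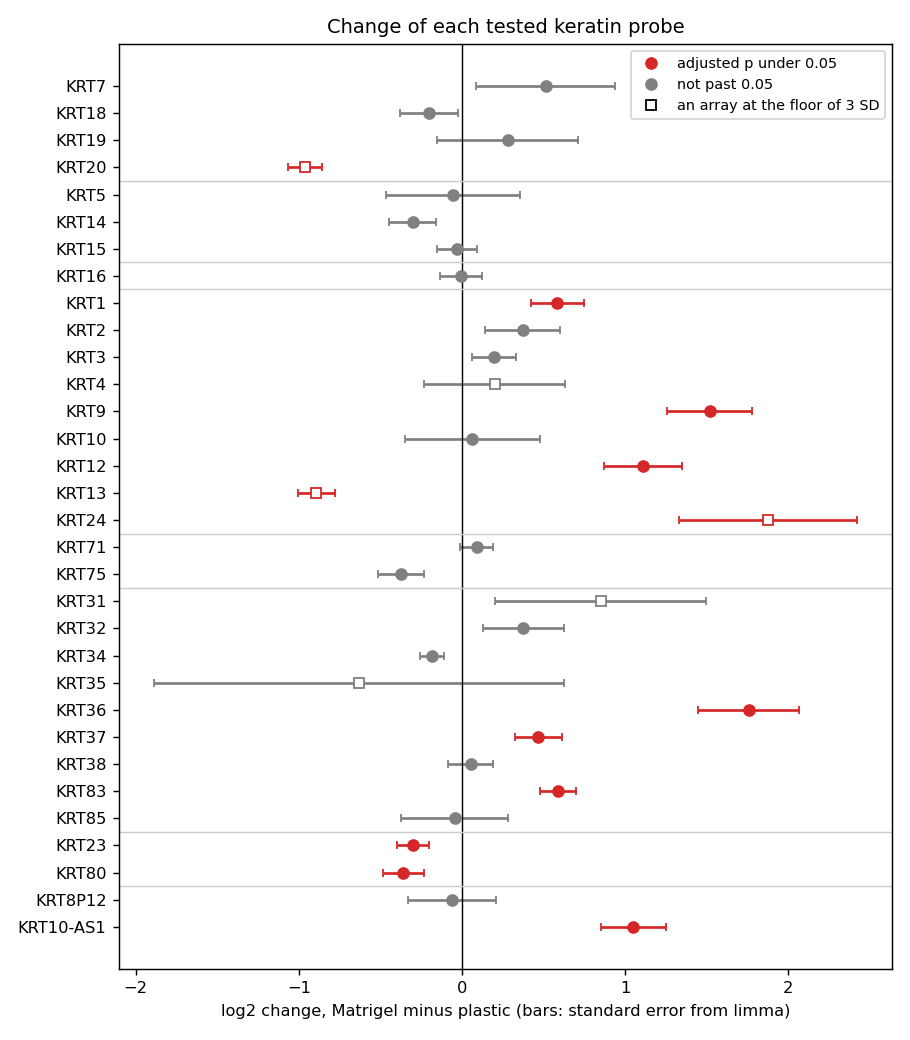
Log2 change of the 32 tested keratins, Matrigel minus plastic, with bars of 1 standard error from limma. Red marks an adjusted p under 0.05, open squares mark keratins with an array at the floor of 3 SD, and classes are separated by gray lines in the order simple, basal, stress, suprabasal, inner root sheath and companion layer, hair shaft, other, and antisense or pseudogene.

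Changes higher on Matrigel lay among the suprabasal and hair shaft keratins and in the antisense gene. Of 9 tested suprabasal keratins 4 were called higher and 1 lower, with a median log2 change of 0.37, and of 9 tested hair shaft keratins 3 were called higher and 0 lower, with a median of 0.38. Of the 4 simple keratins 0 were higher and 1 was lower (median 0.04). The 3 basal keratins (median -0.06) and KRT16 were not called. Over all probes tested 22.8% were higher and 22.4% lower, with a median of 0.06. These classes hold few genes, and the differences between classes were not tested.

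KRT36, a type I hair keratin, had a lowest, median and highest level of 10.6, 18.3 and 29.8 SD on Matrigel, and 6.21 and 4.95 SD on plastic. Every Matrigel array was above both plastic arrays, with day 1 the lowest and day 3 the highest. The log2 change was 1.76 (standard error 0.31, limma-adjusted p 8.3e-04), a 3.38-fold difference, and the spread of the log2 values was 0.42 on Matrigel and 0.23 on plastic.

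KRT9, the type I keratin of palm and sole epidermis, had 15, 24.6 and 33.4 SD as its lowest, median and highest level on Matrigel, and 8.02 and 8.78 SD on plastic. The groups did not overlap, and day 1 was again the lowest Matrigel array. KRT9 was 2.86-fold higher on Matrigel (log2 change 1.52, standard error 0.26, limma-adjusted p 7.4e-04).

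KRT12, the type I keratin of the cornea, had 15.9 SD at 12 h, between 24.8 and 32.6 SD on days 1 to 9, and 14.8 and 10.4 SD on plastic. The 12 h array stood nearer to plastic replicate 1 than to any later Matrigel array. Over all arrays the log2 change was 1.11 (standard error 0.24, limma-adjusted p 0.0031). It was 0.86 without plastic replicate 2, with an adjusted p of 0.079. KRT3, the type II partner of KRT12 in the cornea, had 22.7 to 31.5 SD on Matrigel and 23.5 and 22.6 SD on plastic, and did not pass (log2 change 0.19, adjusted p 0.26).

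KRT24, a type I keratin, was at 1.13 SD at 12 h and at 13.6, 19.5, 12.3, 15.7, 16.3, 14, 15.4 and 13.8 SD on days 1, 2, 3, 4, 6, 7, 8 and 9. On plastic it was at 2.29 and 3.86 SD. The 8 arrays from day 1 on were far above both plastic arrays, while the 12 h array was below both, so the groups overlapped in the deposited values. The 12 h and plastic values are near or under 3 SD and carry no order. In raw intensity the 12 h array (52.8) was above both plastic arrays (10.2 and 13.2). On the scale with a floor of 3 SD the log2 change was 1.88 (standard error 0.55, limma-adjusted p 0.016), and since each group has an array at the floor no fold is given. The call was lost without plastic replicate 1 (log2 change 1.70, adjusted p 0.12) or replicate 2 (2.06, adjusted p 0.079) and with a floor of 1 SD (1.91, adjusted p 0.090), at log2 changes of about the same size. Without the 12 h array the log2 change was 2.13 with an adjusted p of 1.1e-05.

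**Figure D3:**
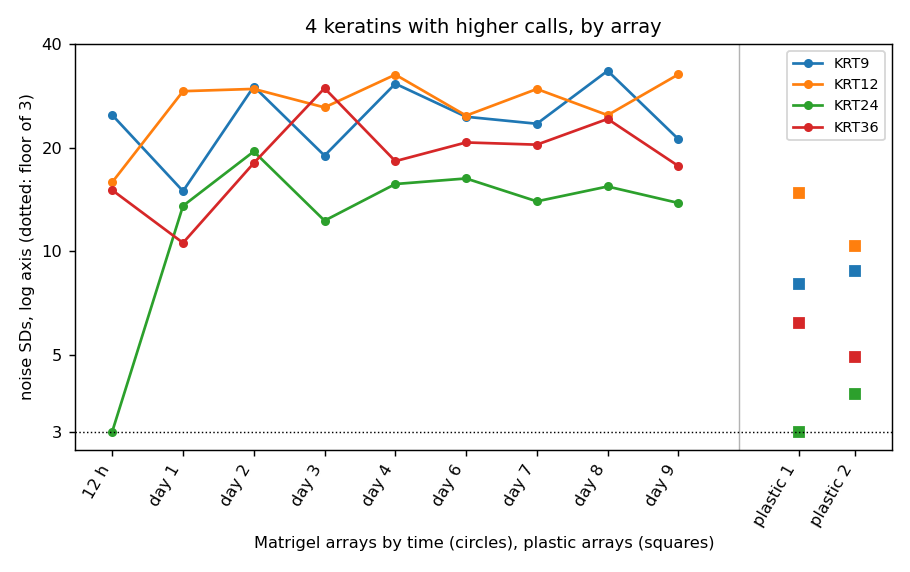
Levels of KRT9, KRT12, KRT24 and KRT36 in noise SDs on a log axis, by array, with Matrigel arrays by time as circles on the left and plastic arrays as squares on the right. Values under 3 SD are drawn on the dotted line at 3, where KRT24 lies at 12 h and on plastic replicate 1.

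In the deposited values the 4 other keratin genes called higher changed less. KRT10-AS1, which is transcribed opposite to KRT10, had 18.8, 30.0 and 35.1 SD as lowest, median and highest level on Matrigel and 14.3 and 13.1 SD on plastic (log2 change 1.05, standard error 0.20, adjusted p 0.0014, 2.07-fold). The groups did not overlap. The probe of KRT10 itself, a type I keratin of the upper epidermis, had 12.1 to 46.5 SD on Matrigel and 33.4 and 31.5 SD on plastic, and the groups overlapped (log2 change 0.06, adjusted p 0.91).

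KRT1, the type II partner of KRT10, had 33.5, 49.0 and 54.7 SD on Matrigel, and 28.9 and 31.7 SD on plastic. The lowest Matrigel array, day 9, was close to plastic. The log2 change was 0.58 (standard error 0.16, limma-adjusted p 0.013), and it was 0.52 (adjusted p 0.12) without plastic replicate 1 and 0.65 (adjusted p 0.069) without plastic replicate 2.

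KRT83, a type II keratin of the hair cortex, had 50.0, 56.3 and 66.9 SD on Matrigel, and 35.2 and 40.8 SD on plastic. The groups did not overlap, with a log2 change of 0.59 (standard error 0.11, limma-adjusted p 0.0014). It was called when either plastic array was left out, and of 19 alternatives lost its call only in rebuilt values centered on the median (-0.070).

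KRT37, a type I hair keratin, had 26.4, 28.7 and 38.7 SD on Matrigel, and 21.6 and 22.1 SD on plastic (log2 change 0.47, standard error 0.14, limma-adjusted p 0.020, 1.38-fold). The groups did not overlap. The log2 change was 0.45 (adjusted p 0.13) without plastic replicate 1 and 0.49 (adjusted p 0.12) without plastic replicate 2. KRT38, with the nearly identical start region shown above, had 29.1 to 42.4 SD on Matrigel and 36.3 and 34.9 SD on plastic (log2 change 0.05, adjusted p 0.78). The difference between the 2 genes was not tested. The sequences of the probes were not used here, so cross-hybridization between related keratins was not tested either.

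Lower on Matrigel were KRT13 and KRT20, markers of urothelial layers, and 2 keratins outside these classes, KRT23 and KRT80. KRT20 had 0.22, 1.81 and 3.99 SD as its lowest, median and highest level on Matrigel, and 5.64 and 6.51 SD on plastic. It was at the floor on 7 of 9 Matrigel arrays, and the groups did not overlap. On the floored scale the log2 change was -0.96 (standard error 0.11, limma-adjusted p 2.5e-05).

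KRT13 was at the floor on all 9 Matrigel arrays, where its highest level was 0.41 SD on day 9, and had 4.44 and 6.99 SD on plastic. A group without spread makes the standard error small (0.12, for a log2 change of -0.89 with a limma-adjusted p of 9.3e-05). KRT4, its type II partner, lay between 0.62 and 9.78 SD on Matrigel and was at 5.64 SD on plastic replicate 1 and under 3 SD on plastic replicate 2 (log2 change 0.20, adjusted p 0.73). The plastic values of KRT13 and KRT20 were near the threshold, at 6.99 SD or less.

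KRT80, a type II keratin, had 27.6, 31.1 and 40.8 SD on Matrigel and 41.7 and 41.6 SD on plastic, and KRT23, a type I keratin, had 28.5, 33.3 and 36.3 SD on Matrigel and 38.9 and 39.955 SD on plastic. In both the groups did not overlap, and the 12 h array was the Matrigel array nearest to plastic. The log2 changes were -0.36 (standard error 0.13, limma-adjusted p 0.037) for KRT80 and -0.30 (standard error 0.10, limma-adjusted p 0.029) for KRT23, and with 1 plastic array left out both log2 changes stayed about as large (-0.36 for KRT80, -0.32 and -0.28 for KRT23) but neither passed (adjusted p 0.14 to 0.22). In rebuilt values, where all probes shifted by a median of 1.29, both were positive but below that shift (0.81 for KRT80 and 0.90 for KRT23), and after centering on the median both were lower on Matrigel (-0.97, adjusted p 1.9e-04, and -0.88, adjusted p 4.1e-05). KRT34, a hair cortex keratin, also lay lower on every Matrigel array (45.9 to 56.1 SD, against 57.3 and 59.1 SD on plastic) without passing (log2 change -0.18, adjusted p 0.067).

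Whether these lower calls are lower intensities depends on the zero point of the arrays. The zero of the deposited values lay at a raw intensity of 28.1 to 62.1 on the Matrigel arrays, next to the low peak of each array (30.8 to 64.4). On the plastic arrays it lay at 3.6 and 1.5, while the larger low peak was at 25.1 and 28.0. The raw intensity of KRT20 was 44.9 to 130.2 on Matrigel and 27.2 and 26.5 on plastic, so that every Matrigel array was above both plastic arrays before normalization. That of KRT13 was 23.4 to 55.7 on Matrigel and 20.4 and 29.2 on plastic, with overlap. When every array was set to its own low peak, KRT13, KRT20, KRT33B, KRT76 and KRT84 were above 3 SD on no array, and neither KRT13 nor KRT20 could be tested. This difference in zero point ran with the substrate on all 11 arrays, so zero point and substrate cannot be told apart.

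**Figure D4:**
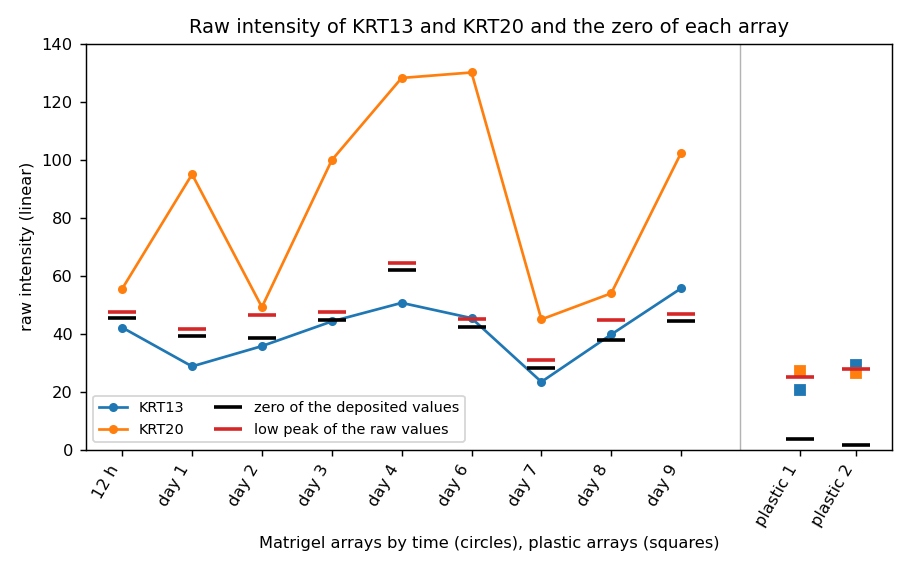
Raw intensity (linear axis) of KRT13 and KRT20 by array, with Matrigel arrays by time as circles and plastic arrays as squares. Black bars mark the raw intensity that became zero in the deposited values and red bars the low peak of each array, and the 2 bars lie close together on the 9 Matrigel arrays and apart on the plastic arrays (3.6 against 25.1, and 1.5 against 28.0).

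The same change of zero left KRT36 and KRT9 apart. Rebuilt from the raw intensities with the zero at the low peak of each array, KRT36 had 5.12 to 16.8 SD on Matrigel and 0.14 and -0.21 SD on plastic, and KRT9 had 8.35 to 17.7 SD on Matrigel and 0.45 and 0.27 SD on plastic. KRT12 had 5.42 to 16.9 SD on Matrigel and 1.83 and 0.50 SD on plastic, so that in all 3 the plastic arrays were under 3 SD. In these values all probes shifted by a median of 1.29 on the log2 scale. With the arrays also centered on their medians, the log2 change was 1.30 for KRT36, 1.62 for KRT9 and 1.73 for KRT12. It was 1.81 for KRT10-AS1 and 0.91 for KRT24, and each had a limma-adjusted p under 0.05. The plastic values of these genes were under 3 SD before centering and stayed at the floor of 3 SD. Centering thus moved only Matrigel arrays for them, and KRT36 went from 1.63 to 1.30. KRT1 (0.15) and KRT83 (-0.070) were not called there. Their plastic arrays were above 3 SD and were moved as well, and KRT83 went from 1.71 to -0.070. The centered changes of these genes therefore cannot be compared with those of the genes at the floor.

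The simple keratins KRT7, KRT18 and KRT19 had signals far above the threshold on every array. KRT7, the type II keratin of ducts and urothelium, had 162, 255 and 527 SD as its lowest, median and highest level on Matrigel, and 207 and 166 SD on plastic. KRT19, the small type I keratin without a tail, had 182, 335 and 440.1 SD on Matrigel, and 246 and 239.6 SD on plastic. KRT18, the partner of KRT8, had 68.5, 97.7 and 122 SD on Matrigel, and 115 and 104 SD on plastic. In each gene the groups overlapped.

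None of the 3 passed in the deposited values, with log2 changes of 0.51 (standard error 0.42, adjusted p 0.35) for KRT7, 0.28 (standard error 0.43, adjusted p 0.62) for KRT19 and -0.20 (standard error 0.18, adjusted p 0.38) for KRT18. Over the days KRT7 was highest on day 1 and lowest on day 7, and KRT19 was highest on day 9 (440.1 SD) and day 1 (428 SD) and lowest on day 7. The raw intensity of KRT19 was 1806 to 3959.6 on Matrigel and 5132 and 4762 on plastic, so every Matrigel array was below both plastic arrays. That of KRT18 was 614 to 1500.0 on Matrigel and 1746 and 1421 on plastic, and that of KRT7 was 1845 to 4649 on Matrigel and 4015 and 2794 on plastic, both with overlap.

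After the arrays were set to their low peaks and centered, all 3 were lower on Matrigel, by log2 changes of -1.57 (KRT7, adjusted p 1.1e-04), -1.72 (KRT18, adjusted p 7.0e-06) and -2.0 (KRT19, adjusted p 6.8e-06). The signs for KRT7 and KRT19 were thus opposite under the 2 scalings, and they were also negative after quantile normalization (-0.16 and -0.49), without passing. The slope of the deposited on the rebuilt log10 values was 0.62 to 0.65 on the plastic arrays and 0.90 to 1.27 on the Matrigel arrays. Centering shifts an array and does not change its slope. The part of this difference in slope in the centered changes of these and other keratins was not tested. In bulk RNA a lower signal from fewer cells of a kind and from less RNA per cell cannot be told apart.

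**Figure D5:**
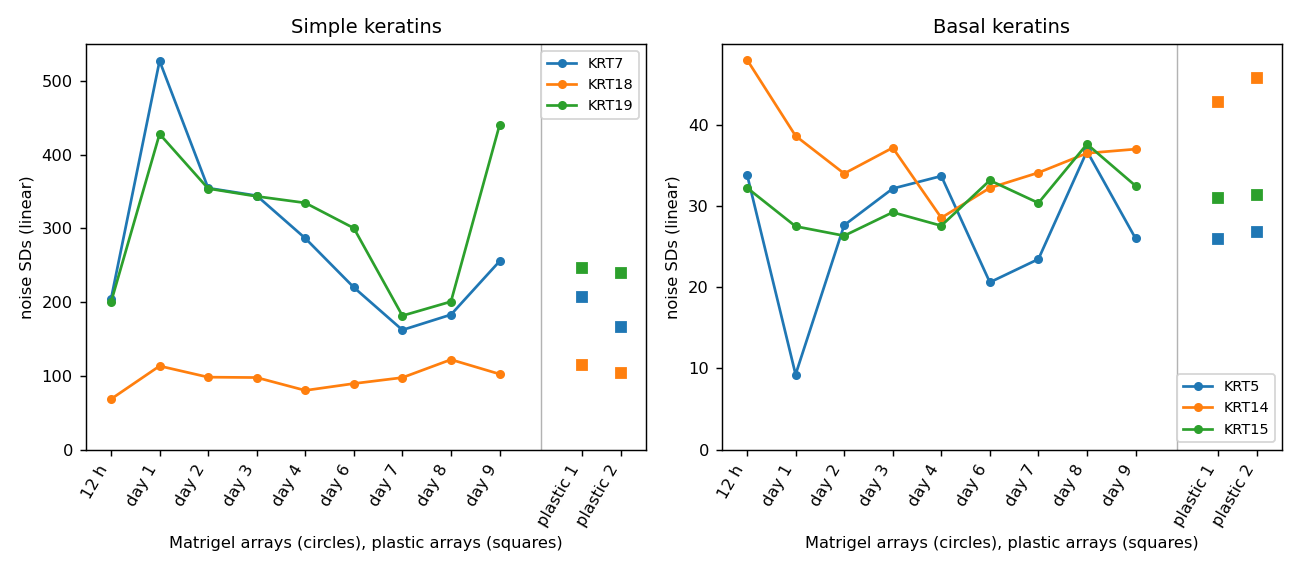
Levels in noise SDs (linear axes from 0) of the simple keratins KRT7, KRT18 and KRT19 (left panel) and the basal keratins KRT5, KRT14 and KRT15 (right panel), with Matrigel arrays by time as circles and plastic arrays as squares. Plastic values lie within the range of the Matrigel arrays in all 6 genes, and the day 1 value of KRT5 (9.25 SD) lies far below its others.

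The basal keratins did not pass in the deposited values. In rebuilt values centered on the median KRT14 (-0.99, adjusted p 2.2e-04) and KRT15 (-0.41, adjusted p 0.021) were lower on Matrigel and KRT5 (-0.24, adjusted p 0.51) did not pass. Before centering KRT5 was at 1.54, KRT15 at 1.38 and KRT14 at 0.80. The median over all probes was 1.29 there. It includes probes with arrays at the floor, so it is not the shift that centering took from these genes. KRT5 had 9.25, 27.6 and 36.7 SD as its lowest, median and highest level on Matrigel, and 25.9 and 26.8 SD on plastic (log2 change -0.06, standard error 0.41, adjusted p 0.92). The day 1 array lay apart from the other 8 Matrigel arrays, which had 20.6 to 36.7 SD. KRT14, the partner of KRT5, had 28.5, 36.5 and 48.0 SD on Matrigel, and 42.9 and 45.8 SD on plastic, and of the Matrigel arrays only that of 12 h lay above plastic.

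KRT14 had a log2 change of -0.30 (standard error 0.14, limma-adjusted p 0.11) and of -0.35 with an adjusted p of 0.017 without the 12 h array. KRT15, a basal keratin of hair follicle and epidermis, had 26.3 to 37.6 SD on Matrigel and 31.0 and 31.3 SD on plastic (log2 change -0.03, adjusted p 0.86). The stress keratin KRT16, which appears in wounded epidermis, had 31.4 to 46.0 SD on Matrigel and 37.5 and 39.3 SD on plastic (log2 change -0.01, adjusted p 0.98), and in rebuilt and centered values it was lower (-0.59, adjusted p 0.0038). None of these p-values shows that the level was the same, and for KRT5 a change of 1 standard error is 0.41 on the log2 scale.

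Of the pairs named above with both partners on the array, in the deposited values KRT1 passed without KRT10, KRT12 without KRT3 and KRT13 without KRT4. Neither KRT5 nor KRT14 passed. This is not a full list of possible pairs, and the type I keratin KRT9 was called higher, as the type II keratin KRT1 was. In the first 2 pairs the member called was higher and in the pair of KRT13 it was lower. In rebuilt values centered on the median this differed, since KRT3 (0.85, adjusted p 0.028) passed along with KRT12, KRT14 passed and KRT1 (0.15, adjusted p 0.42) did not. There plastic replicate 2 of KRT3 (2.78 SD before centering) and both plastic arrays of KRT12 stayed at the floor of 3 SD. Centering did not move them, so these changes cannot be compared with those of KRT1 and KRT14. The difference within a pair was not tested.

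The other members overlapped between the groups. Of the hair follicle keratins, KRT71 of the inner root sheath had 28.6 to 37.9 SD on Matrigel and 29.8 and 29.2 SD on plastic, and KRT75 of the companion layer had 19.8 to 28.1 SD on Matrigel and 30.1 and 27.7 SD on plastic (log2 change -0.37, adjusted p 0.051). KRT31, KRT32 and KRT85 of the hair shaft did not pass (log2 changes 0.85, 0.38 and -0.05). KRT35 was at the floor on 8 Matrigel arrays and at 154 SD on day 3, against 8.01 and 6.46 SD on plastic. KRT2, a late suprabasal keratin of the epidermis, had a log2 change of 0.37 (adjusted p 0.21), and the pseudogene KRT8P12 one of -0.06.

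The time course asked whether keratins still changed after the first 12 h. Against the 8 later Matrigel arrays, 0 keratins were higher at 12 h (3.27% of all probes) and 2 were lower (2.67% of all probes), with the lone 12 h array assumed to vary like the later ones. These were KRT24, which was at least 4.98-fold lower (log2 difference -2.32, standard error 0.26, limma-adjusted p 6.7e-04), and KRT12, which was 1.80-fold lower (log2 difference -0.84, standard error 0.21, limma-adjusted p 0.044). In rebuilt values KRT12 was called at 12 h and KRT24 was not (adjusted p 0.090). KRT10-AS1, also lowest at 12 h, did not pass (log2 difference -0.67, adjusted p 0.071).

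Within the Matrigel arrays 0 keratins had a trend over log2 of the day by limma (0.00466% of all probes). Before adjustment 1 keratin was past the same threshold, KRT24 (0.37 on the log2 scale for each doubling of time), which had its lowest level at 12 h. By the criteria of the study for a change of state, 0 keratins were off-on, with a mean log10 value under 0 on plastic and over 1 on Matrigel (3.97% of all probes), and 0 were on-off (0.41%).

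Genes that work with keratins were counted for context, against the shares over all probes of 22.8% higher and 22.4% lower. Of 11 filament linker genes, not all of them desmosomal, 2 were higher (EVPL, log2 change 0.89, adjusted p 0.034, and JUP, 0.40, adjusted p 0.038) and 4 lower. The largest falls were those of PKP1, at the floor on 8 Matrigel arrays (log2 change -1.43), and of DSP, the desmoplakin to which the filaments attach (log2 change -0.91, adjusted p 0.0044, with 19.9 SD on Matrigel and 37.4 SD on plastic as means). Of 11 tested genes of the cornified envelope 2 were higher (CSTA, 0.86, and SPRR1B, 0.84) and 1 lower (LORICRIN, -1.42, at the floor on all Matrigel arrays).

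Of the 17 keratin-associated proteins, the matrix proteins of the hair shaft, 1 was higher (KRTAP1-3, log2 change 1.33, with both plastic arrays at the floor) and 11 were lower (against 22.8% and 22.4% of all probes), led by KRTAP4-9 (-1.0, adjusted p 0.0032) and KRTAP4-5 (-0.88, adjusted p 0.0026). Their median log2 change was -0.53, while that of the hair shaft keratins was 0.38. Several genes of the KRTAP4 family are near-identical copies, so their probes may not be separate measurements. Of 15 other intermediate filament genes 4 were higher, among them GFAP of astrocytes (1.21) and SYNM (0.91), and 1 was lower (SYNC, -0.52). Of 9 tested urothelial markers 1 passed, PSCA (2.10), which was at the floor on both plastic arrays, and of 7 epithelial markers 1 passed, CDH1 (E-cadherin, -1.11, adjusted p 0.033).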

How the data were processed

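Cy3-labeled cDNA of RT4 cells on Matrigel (9 arrays) and on plastic (2 arrays) had been hybridized to glass arrays spotted with long oligos. The authors deposited the raw intensity of each spot and a table of log10 values, made by dividing the distance from the zero point by the SD of the low peak, taking log10 and bringing the arrays to a common scale with a robust linear fit. Scanner and image software are not given in the sources used here. Array probes with 1 gene symbol numbered 17043, and 172 had several (1 of these named a keratin symbol and was not used).

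The deposited log10 values were turned into log2 after a floor of 3 SD and tested with limma 3.58.1 in R 4.3.3 (eBayes with trend, Benjamini-Hochberg adjustment over the 21480 probes above 3 SD on at least 2 arrays). Adjusted p-values in the text come from these fits. Folds are lower bounds where the lower group has an array at the floor. The raw intensities served for rebuilt values and quantile normalization. Code was tested on simulated data. Python 3.11.15 with pandas 2.3.3 and numpy 2.4.6 was used for counts. The number of arrays limits the precision.

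The 35 members and the gene lists were chosen with earlier results of these data known. Values were given for KRT5, KRT13 and KRT20, for the urothelial and simple keratins, for every keratin past an adjusted p of 0.05, and for at most 2 genes called higher and 2 called lower in every other list. Alternatives were other floors, filters and normalizations, array weights and leaving out each array, and, chosen after seeing the data, rebuilt values centered on the median. Using the mean of the probes of a gene changes nothing for the keratins, since each has 1 probe. In the other lists a gene was represented by its probe of highest mean, and its other probes are not given.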

Additional observations from a re-analysis of the deposited data

Results flagged for a closer look

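In 10 of 31 keratins examined, 1 Matrigel array lay far from the other 8 by Dixon's test of the gap (95% critical value). A further 4 keratins had no spread on Matrigel. For normal values chance alone flags about 1 in 20 groups, or 1.55 here. The test used floored values, so this rate does not hold for keratins with arrays at the floor. Among those flagged these are KRT20, KRT24, KRT31 and KRT35. In KRT20 and KRT35 most Matrigel arrays lay at the floor, which left the other array to stand out. The flagged share over all probes is not given, so an excess over 1.55 cannot be read as a property of keratins. No array has a repeat, so a real change at 1 time and a faulty spot cannot be told apart.

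On day 3, KRT35 was at 154 SD while the other Matrigel arrays were at the floor of 3 SD, KRT31 was at the floor of 3 SD while the others were between 8.97 and 20.0 SD, and KRT10 was at 12.1 SD while the others were between 28.1 and 46.5 SD. KRT35 is a keratin of the hair shaft, and its raw intensity on day 3 was 1984, against 23.7 to 66.5 on the other Matrigel arrays. At 12 h, KRT24 was at the floor of 3 SD (others 12.3 to 19.5 SD), KRT12 was at 15.9 SD (others 24.8 to 32.6 SD) and KRT71 was at 37.9 SD (others 28.6 to 32.8 SD).

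On day 1, KRT5 was at 9.25 SD (others 20.6 to 36.7 SD). On day 4, KRT2 was at 12.0 SD (others 20.8 to 25.8 SD), on day 9, KRT85 was at 10.6 SD (others 19.9 to 32.1 SD), and on day 6, KRT20 was at 3.99 SD (others at most 3.12 SD).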

How the results depend on the processing

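KRT36, KRT9 and KRT10-AS1 kept their calls under all 19 alternatives, and KRT20 under the 17 that could be fitted. The 2 not fitted for KRT20 were the rebuilt and the centered values, which change the zero point on which its call depends. Of its 17 fits 9 leave out a Matrigel array, and KRT20 was at the floor on 7 of these arrays. Its calls are therefore a weak check as well. In the rebuilt values most probes were higher (16027 of 19537). In the centered values the plastic arrays of KRT36, KRT9 and KRT10-AS1 stayed at the floor of 3 SD, which centering did not move. Both alternatives were therefore weak checks of a higher call. That floor also held the plastic arrays of KRT2, KRT4, KRT12 and KRT24 in the centered values. KRT13 kept its call under 13, but 9 of these leave out a Matrigel array and cannot move a gene at the floor on all of them, and the fits without either plastic array, with the rebuilt, centered or quantile values and with the filter at 5 SD could not be made. Over the log2 changes of single keratins 285 values kept direction and side of the threshold, 23 no longer passed, 3 newly passed and 12 changed sign. The number of keratins called higher was 4 to 9 and of those called lower 1 to 6 when 1 array was left out, with 5 higher and 1 lower without plastic replicate 1 and 4 higher and 1 lower without plastic replicate 2. In values rebuilt from the raw intensities the median change over all probes was 1.29 (16027 higher and 51 lower of 19537). There 25 keratins were higher and 0 lower, 1 was called at 12 h (KRT12), 2 were off-on (KRT9 and KRT12) and 18 were above 3 SD on both plastic arrays. Class medians in the rebuilt values were 1.38 (basal), 1.63 (hair shaft), 1.35 (inner root sheath and companion layer), 0.86 (other), 1.19 (stress) and 1.80 (suprabasal), and KRT14 (0.80), KRT23 (0.90), KRT80 (0.81), KRT5 (1.54), KRT18 (0.066) and KRT19 (-0.22) changed sign. Of these KRT14, KRT23, KRT80, KRT18 and KRT19 lay below the median of 1.29, which includes probes with arrays at the floor. KRT5 lay above it, and KRT5, KRT14, KRT23, KRT80 and KRT18 were negative again after centering. Centering the rebuilt values on the median left 6383 probes higher and 6825 lower of 19321, with 12 keratins lower, class medians of -0.41 (basal), -0.43 (inner root sheath and companion layer), -0.92 (other), -1.72 (simple), -0.59 (stress) and 0.88 (suprabasal), and changes of sign for KRT19 (-2.0), KRT7 (-1.57) and KRT83 (-0.070). Quantile normalization gave 1 keratin lower, negative values for KRT7 (-0.16) and KRT19 (-0.49) and a median of -0.36 for the simple keratins, with 3100 probes higher and 3708 lower of 20557. With 1 array left out the log2 change of KRT5 was -0.12 to 0.13, and positive only without Matrigel replicate 2 (day 1). The cause of these differences was not tested.

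With 2 plastic arrays and 1 array for each time, a change of modest size rests on single arrays, and values near 3 SD carry no order. No paired analysis was possible because the Matrigel arrays carry no replicate number, and the words "Matrigel next" in the label of plastic replicate 2 are not explained.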
